A study of Saccharomyces cerevisiae with 4 samples.

Results

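RIP-chip arrays of the RNA-binding protein Whi3 were read here for the 10 genes of budding yeast that encode the G1/S transcription factors, their activators and repressors, and the kinase inhibitor that holds cells before S phase. The genes were SWI4 (YER111C), SWI6 (YLR182W), MBP1 (YDL056W), BCK2 (YER167W), STB1 (YNL309W), WHI5 (YOR083W), NRM1 (YNR009W), YHP1 (YDR451C), YOX1 (YML027W) and SIC1 (YLR079W), out of 5738 genes with a coding probe on the arrays. Each was found by its gene name: 9 names were on the arrays as the preferred common name, and NRM1, for which the arrays carry only the systematic name, was found through the RefSeq gene table. None of the 10 had a separate probe for its 3′ UTR, and none overlapped another annotated gene in that table, which matters because the spotted double-stranded probes do not tell the strands apart.

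Cells of the W303 background were in log phase in YPD medium at 30 °C. The 2 groups were a strain in which Whi3 carries a TAP tag for purification (Whi3-TAP), expressed from its own promoter, and a strain with the same tag on a Whi3 that lacks its RNA recognition motif (Whi3-dRRM-TAP), the part of the protein that contacts RNA. Each group had 2 biological replicates on an array each, taken here as 1 from each of 2 experiments. The labels only number the replicates, so matching arrays of the same number across the strains is an assumption based on the methods. The mean net log ratio does not depend on this pairing, but the values by experiment, their SDs and the blocked fit do. Every array compared the RNA that came down with the tagged protein (Cy3) with total RNA of the same strain (Cy5). The dyes were not exchanged on any array, so a dye effect of a probe stays in each single ratio and cancels only where the strains are compared. The sources used here do not give the number of clones of each strain.

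Budding yeast cells commit to division at Start, late in G1, when a burst of transcription supplies cyclins and DNA replication proteins. SBF, made of the DNA-binding protein Swi4 and its partner Swi6, and MBF, made of Mbp1 and the same Swi6, drive that burst. Whi5 holds SBF inactive until the G1 cyclin Cln3 with the kinase Cdc28 starts to remove it, Stb1 binds Swi6, and Bck2 promotes the same genes by a route parallel to Cln3. Nrm1 later binds MBF and shuts its targets off, while the homeodomain proteins Yox1 and Yhp1 act with Mcm1 to repress genes with an early cell cycle box, among them CLN3, SWI4 and CDC6. Sic1 inhibits Cdc28 bound to B-type cyclins until it is destroyed. CLN3 mRNA is the known target of Whi3, and the question of the comparison is which other mRNAs came down with Whi3 because of its RNA-binding domain.

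With the processing used here, the mRNAs of the late repressors had the highest values among these regulators. The place of YOX1 among them changed with other processing. The measure is the net log ratio: immunoprecipitate over total RNA, in log2, of Whi3-TAP less that of Whi3-dRRM-TAP in the same experiment, as a mean of the experiments. NRM1 stood at 1.70 ± 0.12 (SD, n = 2 experiments), YHP1 at 1.12 ± 0.02 and YOX1 at 0.84 ± 0.16, against a median of −0.09 over the 4295 genes measured on all 4 arrays. CLN3, on the same scale, was at 1.48 ± 0.14. The core factor SWI6 was at −0.58 ± 0.01, and no member reached an adjusted p of 0.05 in the limma fit with experiment as a block, in which no gene of the 4295 did.

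The arrays differed in quality, and this bears on every value below. The spots that passed the scanner's flags ranged from 46.4% on the Whi3-dRRM-TAP array of experiment 1 to 86.5% on the Whi3-TAP array of experiment 2. A channel counted as above background for a gene when the mean net intensity of its usable spots exceeded 2 SDs of the local background. By that rule 89.0% and 99.3% of the genes were above background in the immunoprecipitates of the 2 Whi3-TAP arrays, against 16.6% and 65.5% in those of Whi3-dRRM-TAP. The part of this imbalance in the net log ratios was not tested. The WHI3 probe itself gave log2 total RNA signals of 10.60 and 10.49 in Whi3-TAP and 10.58 and 9.97 in Whi3-dRRM-TAP. The 10.58, from experiment 1, was under background, at 568 units against a limit of 965. The sources do not place that probe relative to the deleted part, so it does not check the labels.

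**Figure D1:**
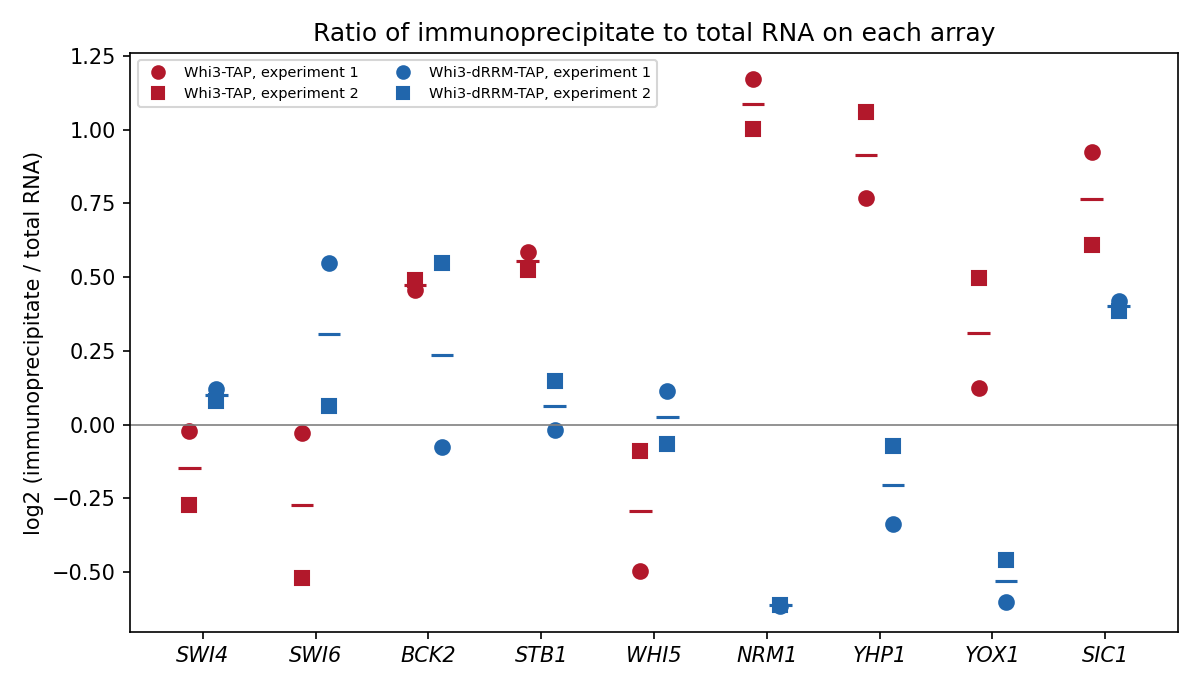
Log2 of immunoprecipitate over total RNA (y axis) for the 9 regulators with a value on all 4 arrays (x axis); each point is an array, circles experiment 1 and squares experiment 2, and short lines are the means of 2 arrays. NRM1, YHP1, YOX1, STB1 and SIC1 have both Whi3-TAP points above both Whi3-dRRM-TAP points, SWI4, SWI6 and WHI5 have the reverse order, and BCK2 overlaps.

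NRM1 encodes the corepressor that turns MBF off. Its immunoprecipitate over total RNA, in log2, was 1.17 and 1.00 on the Whi3-TAP arrays of experiments 1 and 2, and −0.61 and −0.61 on the Whi3-dRRM-TAP arrays. The groups were far apart and the replicate means close together. The SD over single spots was 0.19 and 0.44 on the Whi3-TAP arrays, and 0.54 and 0.56 on the Whi3-dRRM-TAP arrays. NRM1 was above 0 where Whi3 had its RNA-binding domain and below 0 where it did not. Each array was centred in normalization, so 0 stands for a typical gene of that intensity and not for equality with total RNA. The net log ratio was 1.79 in experiment 1 and 1.62 in experiment 2, with a fitted rank of 47 of 4295 genes (79 for CLN3). That rank uses a control signal that was not above background, as given below, so its order beside CLN3 is not settled. The blocked fit gave a 95% interval of 1.14 to 2.26 and an adjusted p of 0.0678, and without the replicate block the adjusted p was 0.0374. The ratio within each strain was tested as well: it passed the limma test on the high side in Whi3-TAP (1.09, adjusted p = 0.0143) and on the low side in Whi3-dRRM-TAP (−0.61, adjusted p = 0.0404). The first call was lost without either Whi3-TAP array, when 0 genes of the whole table were called in that strain. The second was lost without the Whi3-TAP array of experiment 1 (adjusted p = 0.146) or 2 (0.142), without the Whi3-dRRM-TAP array of experiment 1 (0.0601) and with no background correction (0.0677), and with the log2 ratios of the authors the value was −0.02.

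The NRM1 value rested on many spots. The probe was printed in 12 spots from 3 source plates, and 12, 10, 12 and 12 of these were usable on the Whi3-TAP and Whi3-dRRM-TAP arrays of experiment 1 and then of experiment 2. By plate, the net log ratio was 1.88, 1.86 and 1.71 in experiment 1 and 1.86, 1.69 and 1.29 in experiment 2, so all 6 values were above 1. The net intensity in the Whi3-TAP immunoprecipitates was 2213 and 4510 arbitrary units against limits of 474 and 347, but in Whi3-dRRM-TAP it was 837 and 1358 against limits of 1438 and 1543. NRM1 was therefore not well above background in the control immunoprecipitate, and only a bound can be put on that channel. Its total RNA was also under the limit on the Whi3-dRRM-TAP array of experiment 1, at 903 units against 975. With the control immunoprecipitate signal of NRM1 raised to its own limit of 2 background SDs on each array, the mean of the Whi3-TAP immunoprecipitates was at least 1.36-fold higher. This is a bound on the mean of the 2 experiments and not on each of them. In experiment 1, where the control lay further under its limit, almost no margin remained. The bound was taken from single-channel signals and is open to dye bias.

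YHP1 and YOX1 encode the paired homeodomain repressors of early cell cycle box genes. For YHP1 the log2 ratio was 0.77 and 1.06 in Whi3-TAP and −0.34 and −0.07 in Whi3-dRRM-TAP. The groups did not overlap. Under the assumed pairing of the arrays, the net log ratios of 1.11 and 1.13 were nearly the same in the 2 experiments. That is a 2.17-fold higher ratio in Whi3-TAP (95% interval 0.57 to 1.67 on the log2 scale, adjusted p = 0.0750, rank 180). Within Whi3-TAP the ratio of YHP1 passed the test on the high side (0.92, adjusted p = 0.0233), and within Whi3-dRRM-TAP it did not pass (−0.20, adjusted p = 0.411). The immunoprecipitate of YHP1 was above background on both Whi3-TAP arrays and on the Whi3-dRRM-TAP array of experiment 2, but on that of experiment 1 YHP1 was under the limit in both channels, so 1 of the 2 control arrays measured it.

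For YOX1 the log2 ratio was 0.13 and 0.50 in Whi3-TAP and −0.60 and −0.46 in Whi3-dRRM-TAP. The order of the groups was that of YHP1, but the whole set of YOX1 values lay lower. The net log ratio was 0.73 in experiment 1 and 0.96 in experiment 2 (rank 360, 95% interval 0.27 to 1.41, adjusted p = 0.101). YOX1 was under the limit in the immunoprecipitate of both Whi3-dRRM-TAP arrays, at 664 units against 1469 and 1389 against 1572, so its level there is only a bound and no fold is given. By source plate, every one of the 6 values was positive for each paralog: YHP1 ran from 0.33 to 1.43 and YOX1 from 0.53 to 1.28. The plates share the same arrays, and some values rest on few spots. The YHP1 plate with the lowest values kept 1 spot on each Whi3-dRRM-TAP array. For YOX1, plates kept as few as 1 on that of experiment 1. Both gene products repress CLN3, whose own net log ratio of 1.58 and 1.38 lay above those of its repressors.

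**Figure D2:**
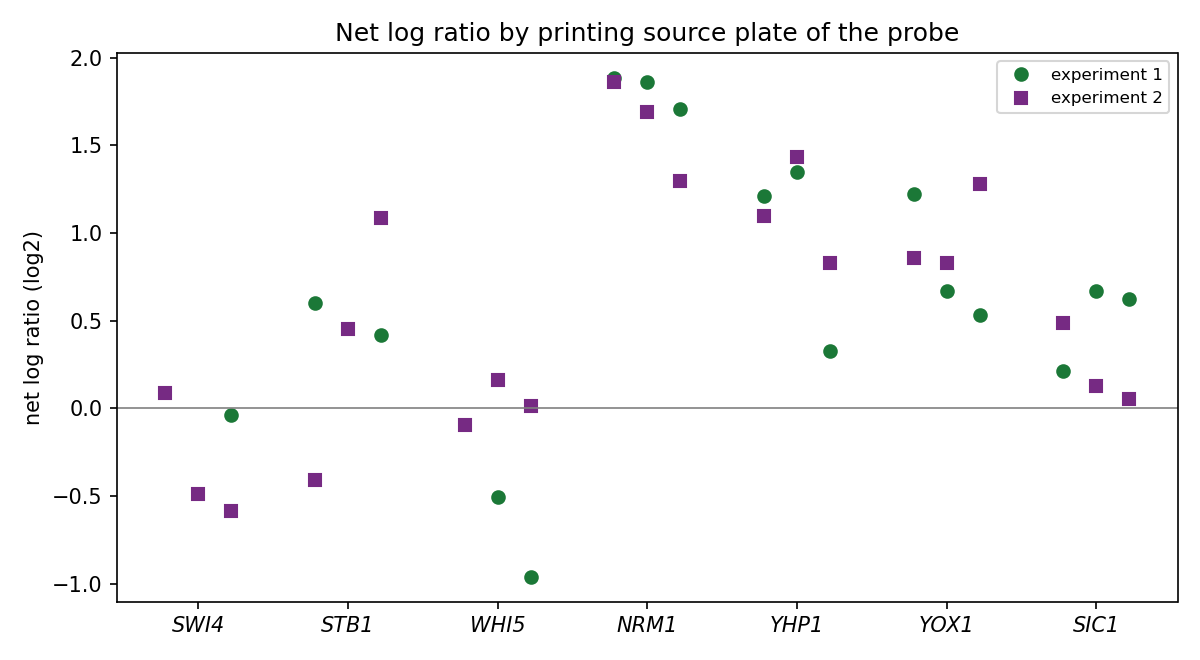
Net log ratio (y axis, log2) of the 7 regulators whose probe was printed from 3 source plates (x axis), with a point for each plate and experiment that had usable spots on both arrays. All points of NRM1, YHP1, YOX1 and SIC1 are above 0, from 1.29 to 1.88 for NRM1, while SWI4, STB1 and WHI5 cross 0.

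WHI5, the repressor of SBF, did not share the position of the other repressors. Its log2 ratio was −0.50 and −0.09 in Whi3-TAP and 0.11 and −0.06 in Whi3-dRRM-TAP. The groups came within 0.03 of touching in experiment 2, where the net log ratio was −0.03, against −0.61 in experiment 1. The mean of −0.32 ± 0.41 (SD, n = 2) had a 95% interval of −0.99 to 0.36 and an adjusted p of 0.432. WHI5 was also dim: its total RNA was above background on 0 of 4 arrays, its immunoprecipitate on 1 (the Whi3-TAP array of experiment 2), and the Whi3-dRRM-TAP array of experiment 1 kept 2 of its 12 spots. A difference of WHI5 was not detectable at this signal, and no fold is given.

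The DNA-binding and scaffold subunits had net log ratios below 0 or no usable value. SWI4, the DNA-binding subunit of SBF, had log2 ratios of −0.02 and −0.27 in Whi3-TAP and 0.12 and 0.08 in Whi3-dRRM-TAP. The order was reversed relative to NRM1 by a small margin, with a net of −0.25 ± 0.15 (SD, n = 2) and an adjusted p of 0.466. Its total RNA was above background on 0 of 4 arrays, its control immunoprecipitate on 0 of 2, and 1 of its 12 spots was usable on the Whi3-dRRM-TAP array of experiment 1. By source plate its net values ran from −0.59 to 0.09. SWI6, the subunit common to SBF and MBF, had log2 ratios of −0.03 and −0.52 in Whi3-TAP and 0.55 and 0.06 in Whi3-dRRM-TAP. The arrays of a group differed by 0.49 in each strain, while the net log ratios of −0.58 and −0.58 agreed closely between experiments. That agreement holds only under the assumed pairing of the arrays. The other pairing would set −0.03 against 0.06 and −0.52 against 0.55. SWI6 lay at rank 3404, a 1.50-fold lower ratio in Whi3-TAP (95% interval −1.13 to −0.03, unadjusted p = 0.0424, adjusted p = 0.158), and it was read from 4 spots of 1 source plate. On the Whi3-dRRM-TAP array of experiment 1 it was under the limit in both channels, so 1 of the 2 control arrays measured it.

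MBP1, the DNA-binding subunit of MBF, could not be compared. Of its 4 spots, 0, 1, 0 and 0 were usable on the Whi3-TAP and Whi3-dRRM-TAP arrays of experiment 1 and then of experiment 2, so it is not among the genes of the fit. Over all 4 spots, flagged ones included, its net immunoprecipitate intensity was 3.0, 129, 14.8 and −34.5 units, under the limits of 482, 1474, 981 and 1573. It was not well above background in either strain. With flagged spots kept, the net log ratio was −0.06 ± 0.27 (SD, n = 2).

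**Figure D3:**
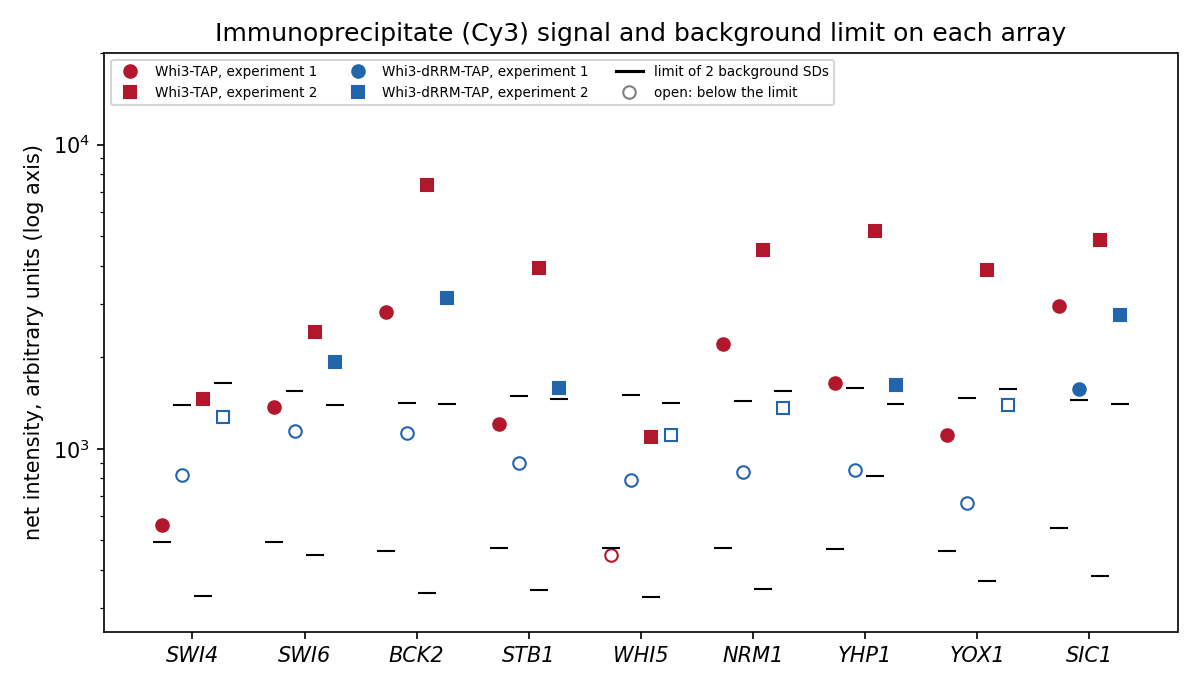
Net intensity of the immunoprecipitate (Cy3) channel on each array (y axis, log scale, arbitrary units) for 9 regulators (x axis), from left to right Whi3-TAP and Whi3-dRRM-TAP of experiment 1, then of experiment 2; black bars are the limits of 2 background SDs and open symbols lie under their limit. SWI4, NRM1, YOX1 and WHI5 are under the limit on both Whi3-dRRM-TAP arrays, and WHI5 is also under it on a Whi3-TAP array.

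Of the activators, STB1 encodes a Swi6-binding protein. Its log2 ratio was 0.59 and 0.52 in Whi3-TAP and −0.02 and 0.15 in Whi3-dRRM-TAP. The groups did not overlap, with net log ratios of 0.60 and 0.38, or a 1.41-fold higher ratio in Whi3-TAP (95% interval −0.08 to 1.06, adjusted p = 0.210). STB1 was under the limit in both channels of the Whi3-dRRM-TAP array of experiment 1 and in total RNA of that of experiment 2, so the fold is uncertain. The source plates of STB1 differed: 1 plate gave 0.60 in experiment 1 and −0.41 in experiment 2, and another gave 0.42 and 1.09. BCK2, the activator parallel to Cln3, had log2 ratios of 0.46 and 0.49 in Whi3-TAP and −0.08 and 0.55 in Whi3-dRRM-TAP. The groups overlapped, the net was 0.53 in experiment 1 and −0.06 in experiment 2, and the mean of 0.24 ± 0.42 (SD, n = 2) had an adjusted p of 0.549. The total RNA of BCK2 was above background on all 4 arrays. Its immunoprecipitate was under the limit on the Whi3-dRRM-TAP array of experiment 1, at 1124.5 units against 1412. The spread of BCK2 came from the Whi3-dRRM-TAP arrays, which differed by 0.62 while those of Whi3-TAP differed by 0.03. Without the Whi3-dRRM-TAP array of experiment 1 its net value was −0.07.

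SIC1, the inhibitor of B-type cyclin kinase, had ratios above 0 in both strains. Its log2 ratio was 0.92 and 0.61 in Whi3-TAP and 0.42 and 0.39 in Whi3-dRRM-TAP. The Whi3-TAP arrays were the higher ones, and the groups did not overlap. In Whi3-TAP the ratio passed the test (0.77, adjusted p = 0.0306), in Whi3-dRRM-TAP it did not (0.40, adjusted p = 0.126), and the difference between the strains was 0.36 ± 0.20 (SD, n = 2), with an adjusted p of 0.320 and a 95% interval of −0.22 to 0.94. SIC1 was thus past the threshold in 1 strain while its difference between the strains was not. Its call in Whi3-TAP, like that of YHP1, was lost without either array of that strain, and also with median centring (adjusted p = 0.0571) and with the log2 ratios of the authors (0.0653). SIC1 was above background in both channels of all 4 arrays.

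The members were counted beside all genes. Of the 9 measured members, 5 were positive in both experiments (32.4% of all genes were), 3 were negative in both (41.2%), and BCK2 changed sign. In the 5 positive genes both Whi3-TAP arrays lay above both Whi3-dRRM-TAP arrays (26.6% of all genes), and in the 3 negative ones they lay below (34.2%). The median of the 9 was 0.36 beside −0.09 over all genes. NRM1 and YHP1 exceeded the limit of 1.05, which is 1.65 SDs above the mean of all genes (5.01% of genes), and no member fell below −1.21, the same distance under the mean (5.05%). The first count was 1 without the Whi3-TAP array of experiment 2 or without either Whi3-dRRM-TAP array. At an unadjusted p under 0.05, 3 members were higher in Whi3-TAP (NRM1, YHP1 and YOX1, where 12.8% of all genes were) and SWI6 was lower (16.5%). After adjustment the count was 0 of 9, with 0% of all genes called in either direction, and without the replicate block it was 1, NRM1, against 1.65% of all genes called higher and 1.42% lower. Without the Whi3-dRRM-TAP array of experiment 2 the blocked design is lost and 4 members passed, NRM1 (adjusted p = 0.00192), YHP1 (0.00664) and YOX1 (0.0264) higher, where 14.3% of all genes were, and SWI6 (0.0480) lower, where 21% were. Without that of experiment 1 NRM1 passed (adjusted p = 0.0127), with 5.05% of all genes called higher and 5.01% lower. Without the Whi3-TAP array of experiment 1 or 2, 0 members and 0 genes passed, and the adjusted p of NRM1 was 0.284 and 0.414.

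Within the strains, 3 members (NRM1, YHP1 and SIC1) had a ratio above 0 past the threshold in Whi3-TAP, where 10.4% of all genes did. A ratio below 0 past the threshold was seen there in 0 members (8.94%). In Whi3-dRRM-TAP 0 were above (13.6%) and NRM1 alone was below (9.22%). By signal, 8 of the 9 were above background in the immunoprecipitate of both Whi3-TAP arrays (88.6% of all genes were), WHI5 being the exception, and 4 (SWI4, NRM1, YOX1 and WHI5) were above it on no Whi3-dRRM-TAP array (33.4%). Every neighbouring pair in the order of net log ratios, from NRM1 down through YHP1, YOX1, STB1, SIC1, BCK2, SWI4 and WHI5 to SWI6, had overlapping 95% intervals. The interval of NRM1 began at 1.14, above the upper ends of STB1 (1.06), SIC1 (0.94), BCK2 (0.91), SWI4 (0.32), WHI5 (0.36) and SWI6 (−0.03). These are intervals of single genes and not tests of differences between genes.

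**Figure D4:**
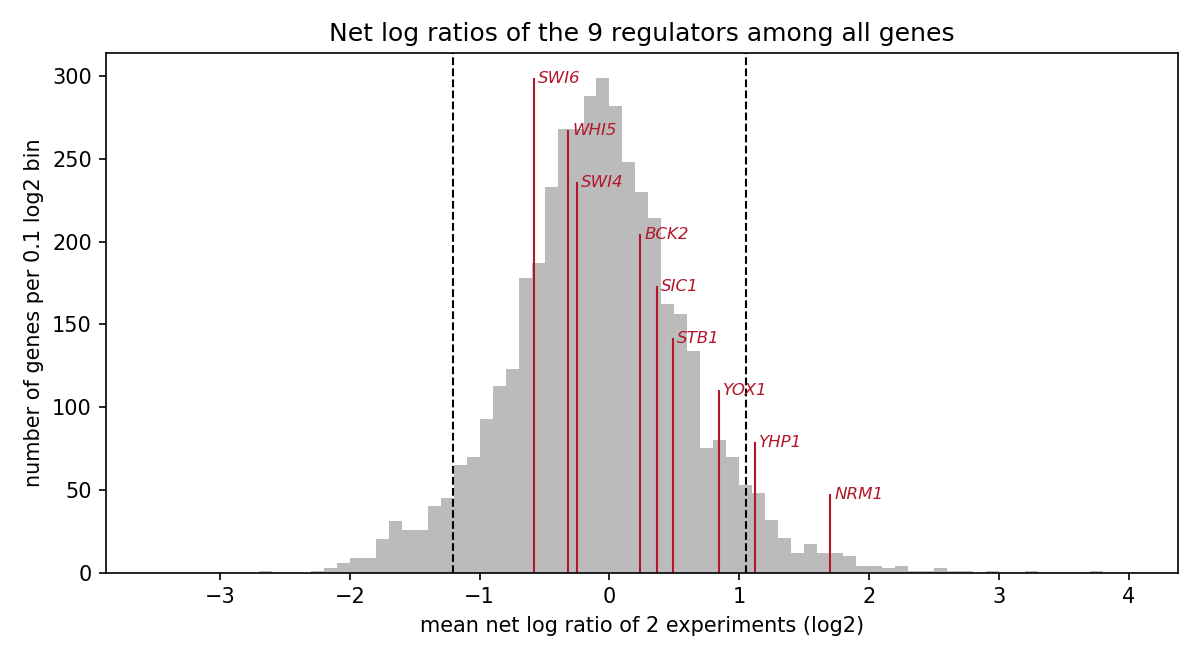
Number of genes per bin of mean net log ratio (grey, x axis in log2, y axis in genes) over 4295 genes, with red lines at the 9 regulators, whose heights only separate the labels, and dashed lines at the limits of 1.05 and −1.21. NRM1 and YHP1 lie beyond the upper limit, and the other 7 lie between the limits.

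The net log ratio has an immunoprecipitate and a total RNA part, and these were separated after the arrays were brought to a common scale. Each part is given as log2 of Whi3-TAP over Whi3-dRRM-TAP minus the median of all genes, which was −0.24 in the immunoprecipitate and −0.15 in total RNA. For NRM1 the fitted immunoprecipitate part was 1.14 ± 0.03 (SD, n = 2) and the total RNA part −0.65 ± 0.17. The first is measured against a control signal under background. There only the bound of 0.44 in log2 holds, for the mean of the 2 experiments and before the median is taken off. The second lay at percentile 3.38 of all genes, so total RNA entered the net value of NRM1 as well. That total RNA was under the limit on the Whi3-dRRM-TAP array of experiment 1, as was that of YHP1 and YOX1. For YHP1 the 2 parts were 0.91 ± 0.16 and −0.29 ± 0.16, and those of CLN3 were 1.38 ± 0.21 and −0.18 ± 0.05. Both genes had the larger part in the immunoprecipitate, with a control signal above background on 1 of 2 arrays. For YOX1 the fitted parts were 0.81 ± 0.09 and −0.11 ± 0.05, the first again against a control signal under background, for which no bound above 0 could be set.

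SIC1 had another composition. Its immunoprecipitate part was −0.02 ± 0.08 (SD, n = 2), and its total RNA part was −0.46 ± 0.30, so its positive net value lay in the total RNA channel. The total RNA of SWI6 was at 0.40 ± 0.40, percentile 91.5 of all genes, and its immunoprecipitate at −0.10 ± 0.43. The net value of SWI6, steady between experiments under the assumed pairing, was thus made of parts that were not. BCK2 was higher in both channels, by 0.63 ± 0.43 and 0.32 ± 0.01. STB1 was higher in the immunoprecipitate by 0.59 ± 0.38, with total RNA at 0.02 ± 0.56. For SWI6, BCK2 and STB1 the control immunoprecipitate was above background on 1 of 2 arrays.

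**Figure D5:**
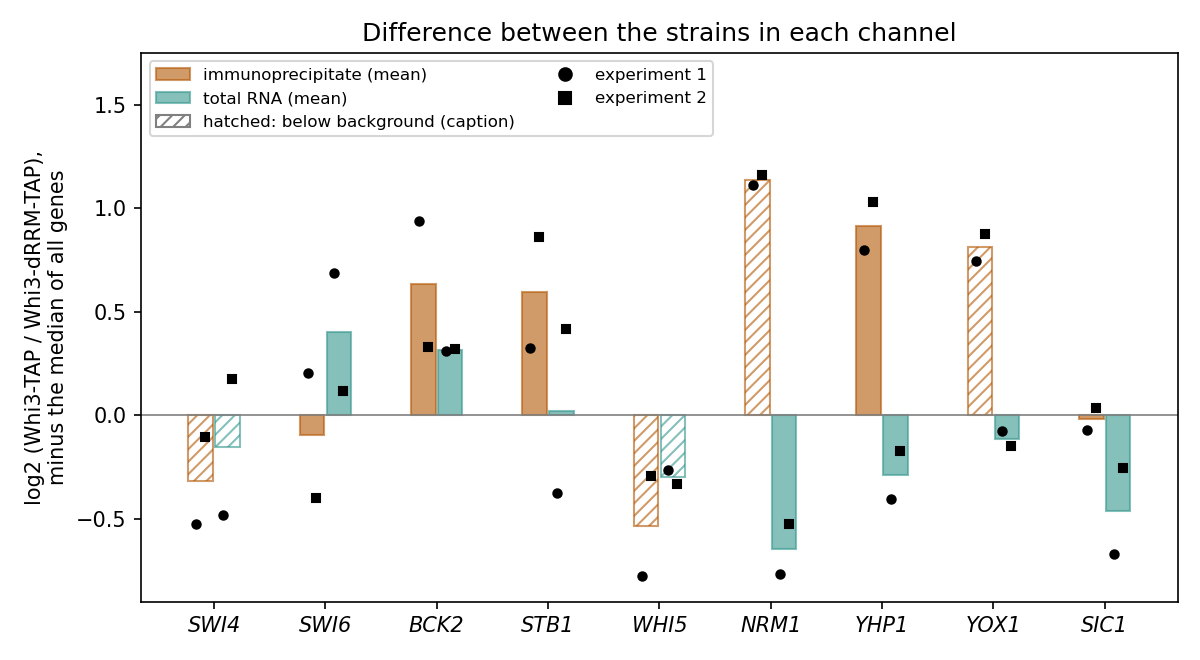
Difference between the strains, as log2 of Whi3-TAP over Whi3-dRRM-TAP minus the median of all genes (y axis), in the immunoprecipitate (brown) and total RNA (green) channels for 9 regulators (x axis); bars are means of 2 experiments, points the single experiments, and hatched bars mark genes under background in the immunoprecipitate of both Whi3-dRRM-TAP arrays or in total RNA of all 4 arrays. The immunoprecipitate bar of YHP1 stands at 0.91, those of NRM1 and YOX1 are hatched, and the total RNA bars of NRM1 and SIC1 at −0.65 and −0.46.

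In total RNA itself, 0 of 9 members and 0% of all genes passed the adjusted threshold in the blocked limma fit, and at an unadjusted p under 0.05 0 members were higher in Whi3-TAP (2.1% of all genes were) and 3, NRM1, SIC1 and WHI5, were lower (12.7%). Before the median of all genes was taken off, NRM1 stood at −0.79 (adjusted p = 0.304), SIC1 at −0.61 (adjusted p = 0.329), WHI5 at −0.45 (adjusted p = 0.336) and YHP1 at −0.44 (adjusted p = 0.365). The mRNAs of these genes are made in part of the cell cycle, and in RNA from whole cultures fewer cells in that part of the cycle and less mRNA per cell cannot be told apart. Total RNA was above background on all 4 arrays for BCK2 and SIC1 alone (25.9% of all genes were), which limits these values further.

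The genes around this circuit were counted in 4 lists, of which CLN1, CLN2 and CLN3 stand in more than 1. No gene of any list passed the adjusted threshold, and the counts by unadjusted p are to be read beside 12.8% of all genes higher and 16.5% lower. Of the genes of the Start kinase, its regulators and the turnover of Sic1, 17 of 18 were measured, with a median net log ratio of 0.21, and 5 (29.4%) were higher and 3 (17.6%) lower with an unadjusted p under 0.05. CLN3 (1.48 ± 0.14) and the G1 cyclin CLN2 (0.82 ± 0.12) were the highest, and SKP1, a subunit of the SCF ubiquitin ligase that destroys Sic1 (−1.62 ± 0.14), and the transcriptional repressor XBP1 (−0.99 ± 0.66) the lowest. XBP1 was read from as few as 1 spot on an array, and its total RNA was above background on 0 of 4 arrays. SKP1 lay opposite to SIC1, at rank 4221 of 4295.

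All 16 SBF target genes were measured, and they had a median of 0.21, and at an unadjusted p under 0.05 there were 4 higher (25%) and 0 lower. The cyclin PCL2, at 1.05 ± 0.08, and CLN2 were the highest of them. The lowest were GIC1, a Cdc42 effector in bud emergence, at −0.66 ± 1.18, and MNN1, a mannosyltransferase of the Golgi, at −0.54 ± 0.04. The values of GIC1 were −1.49 in experiment 1 and 0.18 in experiment 2, so its place rests on 1 experiment. GIC1 was read from as few as 1 spot on an array. Of the MBF target genes, 25 of 26 were measured, with a median of −0.23, and by unadjusted p 1 (4%) was higher and 4 (16%) lower. The S-phase cyclin CLB5 (1.23 ± 0.03) and RFA2 (0.50 ± 0.38) were the highest, and RFA3 (−0.70 ± 0.21) and the histone chaperone ASF1 (−0.66 ± 0.09) the lowest. RFA2 and RFA3 encode subunits of the same single-stranded DNA-binding complex. The immunoprecipitates of PCL2, GIC1, CLB5 and RFA2 were above background on no Whi3-dRRM-TAP array, and the total RNA of PCL2, GIC1 and CLB5 on 0 of 4 arrays, so their places in the lists are uncertain.

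Of Mcm1 and the early cell cycle box genes, the set that Yox1 and Yhp1 repress, all 9 were measured. The list had a median of 0.19, and by unadjusted p 2 were higher and 2 lower, 22.2% each. CDC6, which loads the replicative helicase, was at 2.43 in each experiment and rank 9, and CLN3 followed. The helicase subunits MCM7 (−0.98 ± 0.22) and MCM2 (−0.84 ± 0.18) were the lowest, and MCM2 was above background in total RNA on 0 of 4 arrays. Without the replicate block, CDC6 (adjusted p = 0.0374) and CLN3 (adjusted p = 0.0384) passed the threshold, as NRM1 did. CDC6 and MCM2 were above background in the immunoprecipitate of no Whi3-dRRM-TAP array.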

How the data were processed

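RNA was measured on 4 homemade 2-colour arrays. The authors scanned them with a GenePix scanner, and the deposited scanner values were intensity (mean foreground and local background per spot and channel, not normalized), the percent of saturated pixels and a spot flag. The deposited value table held log2 ratios of the authors, used only as an alternative. It correlated with the scanner ratios at 0.76 to 0.95, in the same direction, with array medians of 0.25, 1.08, 0.21 and 0.52, so its centring stays unknown. No column held the authors' comparisons.

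With limma 3.58.1 in R 4.3.3, background was corrected by normexp (offset 50), arrays were loess-normalized (span 0.3), spots with a negative flag were left out, and spots of a probe averaged. Genes with a value on all 4 arrays were fitted (lmFit, eBayes, 2-sided, Benjamini-Hochberg adjustment over 4295 genes). The strain comparisons had experiment as a block, since per the methods the whole experiment was done independently 2 times; deviations of arrays of the same experiment correlated at 0.22. This leaves 1 residual degree of freedom beside a prior of 3.17. The ratios within strains used no block. Single channels were compared after Aquantile scaling. An SD of 2 values and the number of arrays limit the precision. The fit was tested on simulated data.

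All members were named, and of each list the 2 highest and 2 lowest genes. Members and lists were chosen with earlier results of these data known. Alternatives covered background, normalization, flags, foreground, spot averaging, saturation, dim genes, prior, block, value source and each array left out. Figures were drawn with matplotlib 3.10.9.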

Additional observations from a re-analysis of the deposited data

How the results depend on the processing

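No net log ratio of a member passed the adjusted threshold in the main setting, and the counts of calls depended on the setting. Calls over all genes, higher and lower, went from 0 and 0 to 71 and 61 without the replicate block, 275 and 252 with a prior that follows intensity, 184 and 249 with dim genes left out, 54 and 46 with median centring, 156 and 207 with the median over spots, 341 and 333 with no background correction, 534 and 517 with flagged spots kept, and 62 and 400 with the authors' log ratios. Leaving out an array gave 0 to 618 higher and 0 to 912 lower. The number of members called was 1 without the block, with dim genes left out, with median centring, with the median over spots and with the authors' ratios, 2 with that prior and with no background correction, 3 with flagged spots kept, and 0 to 4 with an array left out. Members above the SD limit fell from 2 to 1 with dim genes left out, median centring, the median over spots and the authors' ratios, rose to 3 with flagged spots kept, and were 1 to 2 with an array left out; 141 genes were above it with dim genes left out, which removes NRM1, SWI4, YOX1 and WHI5. The net log ratio of NRM1 ranged from 1.15 to 1.84 (adjusted p from 0.000117 to 0.414, called under 9 of 16 alternatives), that of YHP1 from 0.60 to 1.27 (5 of 17) and that of YOX1 from 0.24 to 1.03 (2 of 16). SWI6 passed in 1 of 17, at −0.82 without Whi3-dRRM-TAP replicate 2. SIC1 lay above YOX1 with median centring (0.57 against 0.50) and with the authors' ratios (0.31 against 0.24). The sign turned for STB1 with the authors' ratios (−0.18, where the median of all genes was −0.48) and for BCK2 without Whi3-dRRM-TAP replicate 1 (−0.075, in a range of −0.075 to 0.55 with an array left out). The cause was not tested for any of these.

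Within Whi3-TAP, 831 genes and 3 members were called, against 1476 and 5 with no background correction, 1532 genes with flagged spots kept, 404 with the authors' ratios, and 0 to 2025 genes and 0 to 5 members with an array left out. Within Whi3-dRRM-TAP, 982 genes and 1 member were called, against 1677 with median centring, 1682 and 4 with the authors' ratios, 0 members with dim genes left out and with no background correction, 2 with flagged spots kept, and 73 to 1825 genes and 0 to 2 members with an array left out. In total RNA, 0 became 319 genes and 2 members with the intensity prior, 124 and 1 with no background correction, 84 genes with quantile scaling of Cy5 alone, and 0 to 225 genes with an array left out. Ratios within Whi3-TAP changed sign for SWI4 (0.0071 with median centring, 0.50 with the authors' ratios) and WHI5 (0.38 with those ratios). Within Whi3-dRRM-TAP they did so for WHI5 (−0.10 with no background correction, −0.047 with print-tip loess, −0.18 with flagged spots kept, −0.015 with the median over spots, −0.065 without replicate 1), SWI4 (−0.052 and −0.059 with no background correction and flagged spots kept), STB1 (−0.020 with flagged spots kept, −0.019 without replicate 2), BCK2 (−0.073 with median centring, −0.076 to 0.55 with a replicate left out), YHP1 (0.50) and YOX1 (0.27), the last pair with the authors' ratios. Total RNA differences did so with Cy5 scaled alone, which moved the median of all genes to 0.32, for SWI4 (0.27), YHP1 (0.048), YOX1 (0.23), WHI5 (0.15) and STB1 (0.35). They also did for STB1 (0.0085 with median centring, 0.19 with flagged spots kept, 0.045 without Whi3-TAP replicate 1, −0.44 to 0.19 with an array left out), SWI4 (0.11 with flagged spots kept, −0.62 to 0.022 with an array left out) and BCK2 (−0.0036 to 0.34 with an array left out). With an array left out, the lone array of a strain is assumed to vary like the others.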
